A study of Mus musculus with 11 samples.

Results

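Colonic RNA from germ-free and humanized mice was examined for 10 genes of the crypt stem cell and Wnt target programme, namely Lgr5, Ascl2, Smoc2, Axin2, Rnf43, Znrf3, Sox9, Cd44, Ephb2 and Ephb3. The genes were taken by name from the deposited table of 43346 genes. The rule that names them uses no measured value, but they were chosen with earlier results of these data known. All 10 were among the 19863 genes that passed the low-count filter.

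Both groups were male Swiss Webster mice studied at 8 to 10 weeks of age. The 5 germ-free mice had no microbiota. The 6 humanized mice were born germ-free, were gavaged at 4 to 5 weeks of age with 300 μL of stool suspension from 1 donor, and were then given 4 to 5 weeks for colonization, so the donor and colonization cannot be told apart in this design. Polyadenylated RNA of colonic tissue was sequenced, and which layers of the colon wall entered each sample is not given in the sources used here. The replicates were separate mice.

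Reads counted on genes ranged from 49097005 to 64148538 per germ-free mouse and from 39125290 to 54219854 per humanized mouse. Between 141 and 9495 reads per mouse fell on each of the 10 genes. None of the 55 pairs of libraries agreed within sampling noise. Humanized mouse 5 lay farthest from the mean of its group over all tested genes, and LFC values of members that move by over 1.5 times without it are given without it as well. General epithelial markers such as Epcam and Cdh1 were detected in every mouse, and their summed RPKM (reads per kilobase of gene, scaled to library size) lay between 3787 and 5731.

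The epithelium of the colon is renewed from stem cells at the base of the crypts. Wnt ligands bind Frizzled and Lrp receptors and keep β-catenin from being destroyed, and β-catenin then acts with TCF/LEF factors on target genes in the crypt base. R-spondins bind Lgr receptors and protect Frizzled from the ubiquitin ligases Rnf43 and Znrf3. Several targets, Axin2, Rnf43 and Znrf3 among them, in turn dampen the pathway, while the receptors Ephb2 and Ephb3 help to place cells along the crypt axis.

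Since TCF/LEF factors act through short DNA motifs, the promoters of the genes were read first. RefSeq promoter windows of GRCm38.p6, the build of mm10, were found for 6 of the 10 genes, in 7 windows because Rnf43 has 2, each running from 250 bases before the transcription start to 50 after it. Lgr5, Smoc2, Znrf3 and Sox9 had no entry. The 250 upstream bases of 4 genes follow, to set the 2 genes with a window and lower expression in humanized mice, Ascl2 and Axin2, beside the related Eph receptors. Ascl2 lies at chr7:142969265-142969514 on the minus strand, Axin2 at chr11:108920099-108920348 on the plus strand, Ephb2 at chr4:136836013-136836262 on the minus strand and Ephb3 at chr16:21204545-21204794 on the plus strand. Each is written 5′ to 3′ in the direction of the gene. Capitals mark the CCAAT box on either strand (CCAAT or ATTGG) and the E-box CAGCTG, which were searched for after the windows had been seen.
Ascl2: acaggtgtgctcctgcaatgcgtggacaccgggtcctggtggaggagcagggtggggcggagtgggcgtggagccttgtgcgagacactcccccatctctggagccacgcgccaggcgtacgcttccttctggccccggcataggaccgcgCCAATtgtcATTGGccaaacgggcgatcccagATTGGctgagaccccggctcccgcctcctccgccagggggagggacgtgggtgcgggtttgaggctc
Axin2: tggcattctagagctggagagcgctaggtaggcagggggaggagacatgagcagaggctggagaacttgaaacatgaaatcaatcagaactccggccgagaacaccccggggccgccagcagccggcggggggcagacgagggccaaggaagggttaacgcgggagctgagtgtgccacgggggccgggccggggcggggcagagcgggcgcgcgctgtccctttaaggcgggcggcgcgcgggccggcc
Ephb2: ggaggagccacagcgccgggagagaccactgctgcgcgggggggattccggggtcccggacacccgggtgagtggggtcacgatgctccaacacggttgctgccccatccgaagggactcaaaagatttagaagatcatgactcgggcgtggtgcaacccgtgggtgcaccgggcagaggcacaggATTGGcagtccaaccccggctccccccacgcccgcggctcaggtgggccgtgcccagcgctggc
Ephb3: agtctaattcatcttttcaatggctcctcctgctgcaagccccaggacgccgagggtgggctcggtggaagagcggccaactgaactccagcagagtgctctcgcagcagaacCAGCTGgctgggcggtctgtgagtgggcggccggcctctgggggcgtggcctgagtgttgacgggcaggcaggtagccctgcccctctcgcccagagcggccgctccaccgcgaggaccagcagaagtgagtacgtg

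The TCF/LEF core CTTTGA, searched on both strands, was in 0 of the 7 windows and in 16% of 32851 promoter windows of the same length. The longer forms CTTTGAT and CTTTGAA, which contain the core, were in 3.73% and 5.14% of all windows and in 0 of the 7. CCAAT was in 3 of the 7 windows, those of Ascl2, Ephb2 and Axin2 (in Axin2 within the 50 bases after the start, which are not shown), against 37.4% of all windows. CAGCTG was in 1 of the 7, that of Ephb3, against 16.3% of all windows. The 250 upstream bases of Ascl2, Axin2, Ephb2 and Ephb3 were 65.6% to 69.2% G and C, those of Cd44 56.4% and those of Rnf43 44.4% and 45.2%, against a median of 52.4% over all promoters. These windows cover the start site only, and Wnt response elements farther away were not examined.

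Of the 10 genes, 6 (Lgr5, Ascl2, Smoc2, Axin2, Znrf3 and Sox9) were lower in humanized mice at FDR below 0.01 (edgeR's exact test with Benjamini–Hochberg correction over all tested genes). Over all tested genes, 10.1% were lower at this threshold and 9.2% were higher. None of the 10 was higher (0 at an unadjusted p under 0.05, and 0 by edgeR's quasi-likelihood test and by DESeq2), and 4 were called in neither direction. In the same 6 genes the CPM of every humanized mouse was below that of every germ-free mouse, as in 9.73% of all tested genes, and no member had its groups apart in the other direction, as 8.67% of all tested genes did. The median log2 fold change (LFC, humanized over germ-free) was −0.36 over the 10 genes and 0.01 over all tested genes. The quasi-likelihood test called 5 of the 10 lower, without Sox9, against 6.53% of all tested genes. Levels are given as RPKM from TMM-scaled libraries and the lengths in the deposited table, and means carry the SD (n = 5 germ-free, n = 6 humanized). Standard errors (SE) of LFC come from the quasi-likelihood fit. Single values were also compared by an exact two-sided permutation test over the 462 splits of the mice, in which 0.00216 is the smallest possible p.

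**Figure D1:**
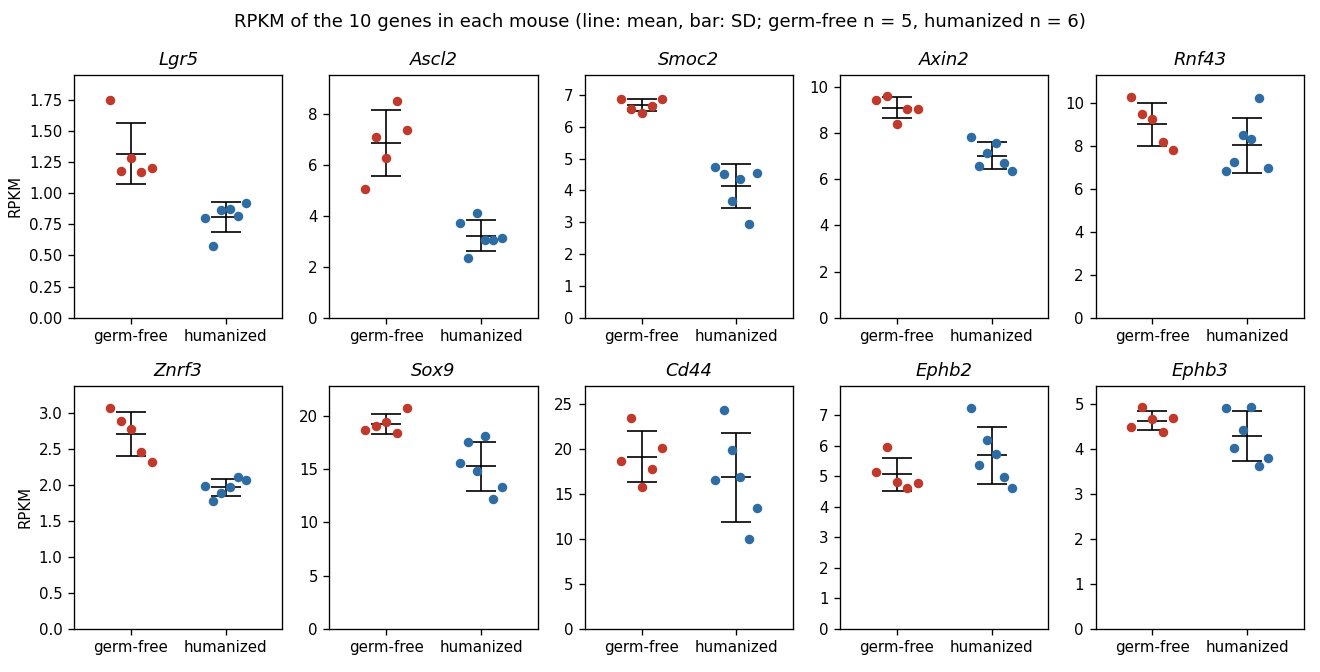
RPKM of each of the 10 genes (vertical axes from 0, a scale for each gene) in every germ-free (red) and humanized (blue) mouse, with the mean as a line and the SD as a bar. For Lgr5, Ascl2, Smoc2, Axin2, Znrf3 and Sox9 every humanized mouse lies below every germ-free mouse, and for Rnf43, Cd44, Ephb2 and Ephb3 the groups overlap.

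The lowest LFC values of the 10 were those of Ascl2, Lgr5 and Smoc2. Ascl2 encodes the basic helix-loop-helix factor that maintains Lgr5-positive stem cells, and the gene (ENSMUSG00000009248) lies on chromosome 7 from 142966822 to 142969264. Germ-free mice 1 to 5 had 5.06, 7.11, 6.30, 8.54 and 7.40 RPKM. The humanized mice had 2.36 RPKM at the lowest, a median of 3.09 and 4.11 at the highest. Every humanized mouse was below every germ-free mouse. The mean of 6.88 ± 1.30 RPKM in germ-free mice stood against 3.24 ± 0.608 in humanized mice, 53.0% lower (LFC −1.09, SE 0.16, FDR = 1.44e-07, exact permutation p = 0.00216). This was the only member beyond an LFC of −1, which 6.41% of all tested genes passed together with the FDR threshold.

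Lgr5, the R-spondin receptor that marks crypt base columnar cells (ENSMUSG00000020140, chromosome 10 from 115450311 to 115587780), was the least abundant of the 10. Germ-free mice 1 to 5 had 1.75, 1.18, 1.28, 1.17 and 1.20 RPKM. Humanized mice ranged from 0.580 to 0.918 RPKM around a median of 0.841. The groups did not overlap, and germ-free mouse 1 and humanized mouse 2 stood apart within their groups. Means were 1.32 ± 0.245 and 0.810 ± 0.120 RPKM, 38.5% lower in humanized mice (LFC −0.70, SE 0.14, FDR = 0.000182, exact permutation p = 0.00216). Without germ-free mouse 1 the LFC was −0.58 (FDR = 0.00184).

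Smoc2 encodes a secreted calcium-binding matricellular protein found in the Lgr5 stem cell signature, and stromal cells can express it as well (ENSMUSG00000023886, chromosome 17 from 14279506 to 14404790). Germ-free mice 1 to 5 were within a narrow range, at 6.87, 6.56, 6.44, 6.64 and 6.86 RPKM. Humanized mice had 2.95 RPKM at the lowest, in mouse 5, a median of 4.44 and 4.74 at the highest. No humanized mouse reached the lowest germ-free mouse. Means were 6.68 ± 0.189 and 4.13 ± 0.684 RPKM, 38.1% lower in humanized mice (LFC −0.69, SE 0.11, FDR = 4.16e-06, exact permutation p = 0.00216). Without humanized mouse 5 the LFC was −0.61 (FDR = 5.95e-08). The coefficient of variation was 2.83% in germ-free and 16.6% in humanized mice.

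Among the feedback inhibitors of Wnt signalling, Axin2 and Znrf3 were lower in humanized mice and Rnf43 was not called. Axin2 encodes a scaffold of the β-catenin destruction complex and is a general readout of Wnt activity (ENSMUSG00000000142, chromosome 11 from 108920349 to 108950783). Its level in germ-free mice 1 to 5 was 9.43, 9.58, 8.38, 9.05 and 9.05 RPKM. In humanized mice it was 6.37 RPKM at the lowest, 6.91 at the median and 7.82 at the highest, again with no overlap. Means were 9.10 ± 0.466 and 7.02 ± 0.582 RPKM, 22.9% lower in humanized mice (LFC −0.38, SE 0.06, FDR = 3.66e-05, exact permutation p = 0.00216). A gene on the opposite strand, Gm11670, covers 3.8% of the exon bases of Axin2, and since the library kit does not mark strand, reads of that stretch cannot be assigned. No other member shared exon bases with another gene in GENCODE M21.

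Znrf3 and Rnf43 encode related transmembrane E3 ubiquitin ligases that remove Frizzled from the cell surface. Znrf3 (ENSMUSG00000041961, chromosome 11 from 5276324 to 5444847) had 3.07, 2.89, 2.78, 2.47 and 2.33 RPKM in germ-free mice 1 to 5. Humanized mice ranged from 1.78 to 2.11 RPKM around a median of 1.98, all below the germ-free mice. Means were 2.71 ± 0.306 and 1.97 ± 0.119 RPKM, 27.2% lower in humanized mice (LFC −0.46, SE 0.08, FDR = 0.000179, exact permutation p = 0.00216).

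Rnf43 (ENSMUSG00000034177, chromosome 11 from 87662722 to 87735539) had 10.3, 9.52, 9.25, 8.18 and 7.80 RPKM in germ-free mice 1 to 5. In humanized mice it ranged from 6.84 to 10.2 RPKM around a median of 7.80, so the groups overlapped. Means were 9.01 ± 1.02 and 8.03 ± 1.28 RPKM (LFC −0.17, SE 0.11, FDR = 0.315, exact permutation p = 0.177). Humanized mouse 5 had the highest value of its group for both ligases, and without it the LFC of Rnf43 was −0.25 (FDR = 0.0479).

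The ratio of Znrf3 to Rnf43 within a library does not depend on how libraries are scaled, and it was compared as 1 of 2 pairs of related members. Germ-free mice 1 to 5 had ratios of 0.298, 0.303, 0.301, 0.302 and 0.298, while humanized mice had 0.290, 0.246, 0.222, 0.236, 0.207 and 0.296. Every humanized mouse was below every germ-free mouse, with means of 0.300 ± 0.00234 and 0.249 ± 0.0363 (difference of log2 ratios −0.28, exact permutation p = 0.0173, adjusted over 2 pairs 0.0173). Counting error alone gives a coefficient of variation of 3.25% for this ratio in germ-free mice, above the 0.778% observed, so the closeness of the 5 values exceeds what their depth can resolve. In humanized mice the coefficient was 14.5%, against 4.45% from counting. The lowest ratio, 0.207, was that of humanized mouse 5, and without it the humanized mean was 0.258 and the lowest ratio 0.222 (difference of log2 ratios −0.23, exact permutation p = 0.00794, adjusted over 2 pairs 0.0159).

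**Figure D2:**
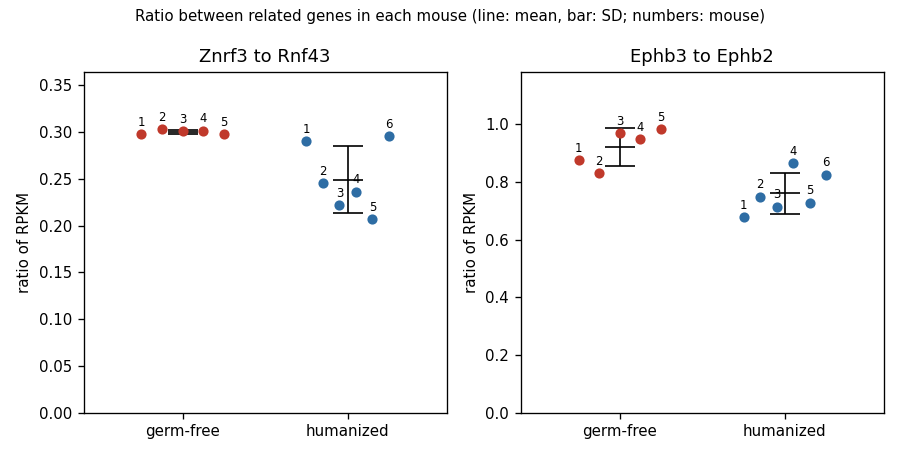
Ratio of RPKM of Znrf3 to Rnf43 (left) and of Ephb3 to Ephb2 (right) in each germ-free (red) and humanized (blue) mouse, numbered as in the labels, with the mean as a line and the SD as a bar. Humanized mice 1 and 6 lie just under the germ-free mice for Znrf3 to Rnf43, at 0.290 and 0.296, and the other 4 lie from 0.207 to 0.246.

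Sox9 and Cd44 were the most abundant of the 10 genes. Sox9, an HMG-box factor of crypt base and progenitor cells (ENSMUSG00000000567, chromosome 11 from 112782224 to 112787760), had 18.7, 19.1, 19.5, 18.4 and 20.8 RPKM in germ-free mice 1 to 5. Humanized mice ranged from 12.2 to 18.1 RPKM around a median of 15.3. The groups did not overlap, but the highest humanized mouse was close to the lowest germ-free mouse. Means were 19.3 ± 0.922 and 15.3 ± 2.32 RPKM, 20.8% lower in humanized mice (LFC −0.34, SE 0.09, FDR = 0.00726, exact permutation p = 0.0108). Under the alternatives run, this call was the least stable of the 6. It was lost under the quasi-likelihood test (FDR = 0.0194) and when any of 8 of the 11 mice was left out, namely germ-free mice 1 to 5 and humanized mice 1, 3 and 6.

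Cd44 encodes the hyaluronan receptor, a Wnt target in crypts that leukocytes express strongly too (ENSMUSG00000005087, chromosome 2 from 102811141 to 102901665). Germ-free mice 1 to 5 had 18.6, 23.4, 15.8, 17.8 and 20.0 RPKM. Humanized mice ran from 10.0 RPKM in mouse 5 to 24.3 in mouse 2 around a median of 16.7, the widest spread of the 10 genes, with a coefficient of variation of 29.6%. The groups overlapped. Means were 19.1 ± 2.86 and 16.8 ± 4.97 RPKM (LFC −0.19, SE 0.19, FDR = 0.520, exact permutation p = 0.333), and the value leaned on single mice. The LFC was −0.07 (FDR = 0.771) without humanized mouse 5, −0.11 (FDR = 0.767) without germ-free mouse 2 and −0.33 (FDR = 0.153) without humanized mouse 2. The summed RPKM of 12 leukocyte markers was highest in humanized mice 3 and 2, at 210 and 183, and lowest in mouse 5, at 40.2. Most of this sum was Lyz2, named after its value was seen and not called (71.2 and 93.5 RPKM, FDR = 0.470). The geometric mean of the 12 markers, each relative to its germ-free mean, was 2.81 and 2.56 in humanized mice 3 and 2. In mouse 5 it was 0.808. The part of leukocytes in the Cd44 level was not tested.

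The receptors Ephb2 and Ephb3, which sort cells along the crypt axis by repulsion from ephrin-B ligands, were not called. Ephb2 (ENSMUSG00000028664, chromosome 4 from 136647539 to 136835988) had 5.13, 5.96, 4.82, 4.62 and 4.77 RPKM in germ-free mice 1 to 5. Humanized mice ranged from 4.62 to 7.25 RPKM around a median of 5.54. Means were 5.06 ± 0.534 and 5.69 ± 0.943 RPKM (LFC 0.17, SE 0.11, FDR = 0.306, exact permutation p = 0.208). It was the only member with a positive LFC, and the sign turned with total-count scaling (−0.01, FDR = 0.948). Without humanized mouse 1, which had the highest level, the LFC was 0.09 (FDR = 0.606).

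Ephb3 (ENSMUSG00000005958, chromosome 16 from 21204755 to 21223305) had 4.49, 4.95, 4.68, 4.39 and 4.69 RPKM in germ-free mice 1 to 5. Humanized mice ranged from 3.63 to 4.95 RPKM around a median of 4.23. Means were 4.64 ± 0.216 and 4.29 ± 0.565 RPKM (LFC −0.11, SE 0.09, FDR = 0.465, exact permutation p = 0.219), and without humanized mouse 5, the lowest of its group, the LFC was −0.07 (FDR = 0.634). The groups overlapped for both receptors.

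Set against each other within a library, however, the receptors differed between the groups. The ratio of Ephb3 to Ephb2 was 0.875, 0.831, 0.970, 0.948 and 0.983 in germ-free mice 1 to 5 and 0.679, 0.749, 0.714, 0.866, 0.728 and 0.825 in humanized mice 1 to 6. Humanized mouse 4 was above germ-free mouse 2, and the remaining humanized mice were below all germ-free mice. Means were 0.922 ± 0.0656 and 0.760 ± 0.0710 (difference of log2 ratios −0.28, exact permutation p = 0.00866, adjusted over 2 pairs 0.0173). A ratio shows unequal change of the 2 genes and not which of them changed.

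Relative to all tested genes, the members covered a wide range of abundance, from the percentile 29.4 of mean RPKM for Lgr5 to 84.0 for Sox9 in germ-free mice. In germ-free mice Sox9 and Cd44, whose ranges overlapped, were highest. They were followed by Axin2, Rnf43, Ascl2 and Smoc2, each overlapping its neighbour in this order, then by Ephb2 and Ephb3, which also overlapped. Znrf3 and Lgr5 came last, each without overlap with the gene above it. In humanized mice Rnf43, Axin2, Ephb2, Ephb3, Smoc2 and Ascl2 formed a chain of overlapping neighbours between Cd44 and Sox9 above and Znrf3 and Lgr5 below. Ascl2 moved from percentile 61.8 to 45.7, while Ephb2 had 54.6 and 57.1. This order compares levels per length and leans on the deposited lengths. That of Smoc2, 2832 bases, is well below the 6951 exon bases of GENCODE M21, so Smoc2 would rank lower with the latter, whereas its LFC does not depend on length.

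The 10 genes did not vary as a block among the humanized mice. The geometric mean of the 10 levels, each relative to its germ-free mean, was 0.960 to 1.05 in germ-free mice and 0.808, 0.727, 0.798, 0.800, 0.677 and 0.710 in humanized mice 1 to 6. Humanized mouse 5 was the lowest of its group for Smoc2, Sox9, Cd44 and Ephb3 and the highest for Rnf43 and Znrf3. Humanized mouse 2 was the lowest for Lgr5, Ascl2 and Znrf3 and the highest for Cd44. All 6 genes called lower were also called lower without humanized mouse 5. Of the members, 4 lie on chromosome 11 (Axin2, Rnf43, Znrf3 and Sox9), which holds 8.26% of the tested genes.

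**Figure D3:**
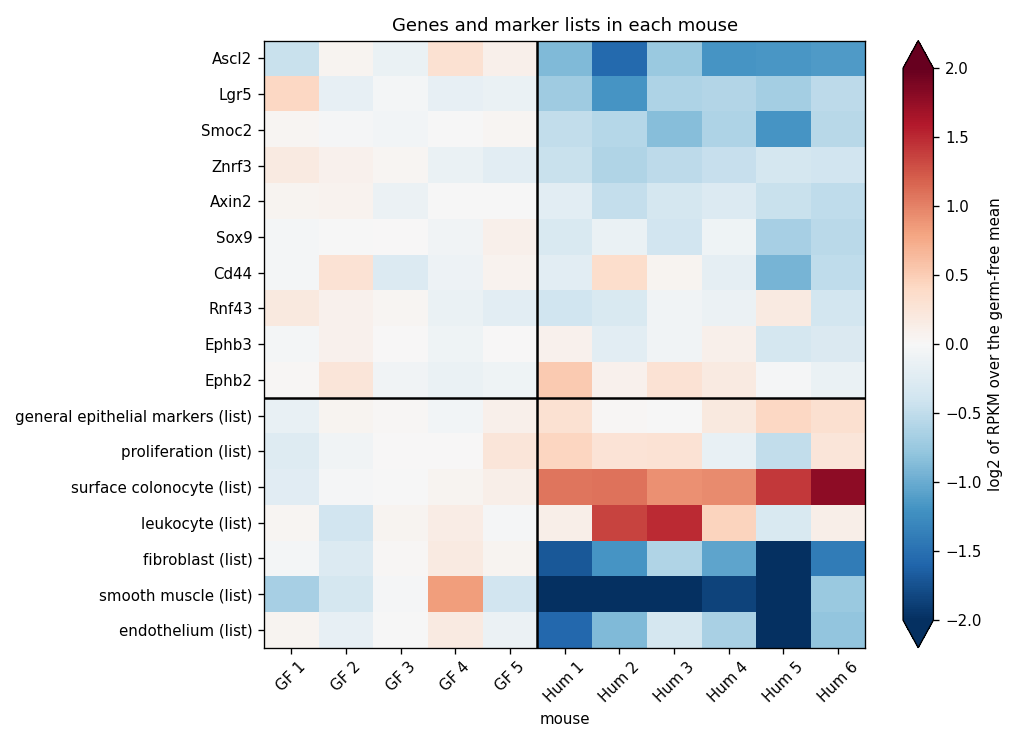
Colour gives the log2 of RPKM over the mean of germ-free mice for the 10 genes (upper rows), and for marker lists (lower rows) the log2 of the geometric mean of such ratios over the list, in each germ-free (GF) and humanized (Hum) mouse, with colours saturated beyond −2 and 2. Ascl2, Lgr5 and Smoc2 are blue in all 6 humanized mice, with Ascl2 palest in mice 1 and 3, while the fibroblast list is darkest in humanized mouse 5 and the smooth muscle list is at the end of the colour scale in humanized mice 1, 2, 3 and 5.

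Lower levels in bulk tissue can reflect fewer cells of a type or less RNA per cell, and these cannot be told apart here. Other genes of the crypt base were therefore read from a list of 20, of which 19 were tested and 6 were called. Of these, 5 were lower and 1 higher, against 10.1% lower and 9.2% higher of all tested genes, and the median LFC of the list was −0.13. The quasi-likelihood test called 4 lower and 1 higher, and DESeq2 called 5 lower and 2 higher. At an unadjusted p under 0.05, 7 were lower and 2 higher. Lower in humanized mice were Nav1, a cytoskeletal regulator (LFC −0.94, SE 0.24, FDR = 0.0012), Cdk6, a G1 kinase (10.7 to 6.23 RPKM, LFC −0.77, SE 0.10, FDR = 2.62e-10), and Lrig1, a restraint on ErbB receptors (25.2 to 21.0 RPKM, LFC −0.27, SE 0.06, FDR = 0.00131, not below 0.01 without germ-free mouse 3). Rgmb, a BMP co-receptor (LFC −0.55, FDR = 2.54e-11), and Hopx, a homeodomain protein linked to reserve stem cells (LFC −0.35, FDR = 0.000572), were lower as well and are named after their values were seen. Prom1, which encodes the membrane glycoprotein CD133, was higher, from 75.2 to 118 RPKM (LFC 0.65, SE 0.11, FDR = 3.44e-07). Olfm4 did not pass the low-count filter.

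Of 15 further Wnt target genes, 12 were tested, and 4 were lower and 0 higher in humanized mice, with a median LFC of −0.36. Only Wif1 was higher at an unadjusted p under 0.05, and none was higher by the quasi-likelihood test or DESeq2. Nkd1, an inhibitor of Dishevelled, had 2.12 RPKM in germ-free and 0.695 in humanized mice (LFC −1.61, SE 0.36, FDR = 0.000214). Without germ-free mouse 4 the LFC of Nkd1 was −1.31 (FDR = 0.00277). Apcdd1, a membrane-bound Wnt antagonist, had 1.41 and 0.439 RPKM (LFC −1.68, SE 0.28, FDR = 7.73e-07). Bambi, a pseudoreceptor of the TGF-β family, had 5.77 and 2.87 RPKM (LFC −1.01, SE 0.15, FDR = 2.54e-08), and the growth regulator Myc had 10.8 and 8.06 RPKM (LFC −0.41, SE 0.10, FDR = 0.00308). The call of Myc was lost without germ-free mouse 2, 4 or 5 or humanized mouse 1.

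Upstream in the pathway, 13 of 17 ligands, R-spondins and receptors were tested, and 7 were lower and 0 higher, with a median LFC of −0.88. Of these genes, 1 (Lgr4) was higher at an unadjusted p under 0.05, and none was higher by the other tests. The secreted agonist Rspo2 (LFC −1.92, SE 0.40, FDR = 1.52e-05) and the ligand Wnt2b (8.16 to 2.33 RPKM, LFC −1.81, SE 0.35, FDR = 8.14e-06) had the lowest LFC. Fzd7, a receptor of intestinal stem cells (6.19 to 3.36 RPKM, LFC −0.88, SE 0.09, FDR = 1.28e-13), and the ligand Wnt5a (LFC −0.66, SE 0.19, FDR = 0.00601) were the called genes nearest 0. The call of Wnt5a was lost when any of 8 mice was left out (germ-free mice 1 to 5 and humanized mice 1, 2 and 6). Rspo3, Wnt4 and Wnt6, named after their values were seen, were the remaining 3, and the call of Wnt4 was lost without any of 7 mice (germ-free mice 1 to 3 and humanized mice 1, 2, 4 and 6). Of the receptors that were not called, Fzd5 had an LFC of −0.05, Lrp5 −0.06, Lrp6 0.07 and Lgr4 0.25, all named after their values were seen.

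Within the cell, 15 genes of the destruction complex and nuclear machinery gave 2 higher, 1 lower and 12 not called, with a median LFC of 0.08. Dvl2, a transducer downstream of Frizzled, was higher (15.3 to 22.5 RPKM, LFC 0.56, SE 0.07, FDR = 1.25e-09), as was the TCF factor Tcf7l2 (3.71 to 4.73 RPKM, LFC 0.35, SE 0.10, FDR = 0.00902), although this call was lost without any of 7 mice (germ-free mice 2 to 5 and humanized mice 4 to 6). The β-catenin coactivator Bcl9l was lower (8.01 to 4.95 RPKM, LFC −0.69, SE 0.10, FDR = 2.11e-08). Ctnnb1, which encodes β-catenin, had an LFC of 0.10 (FDR = 0.352).

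Among 14 Eph receptors and ephrins other than the members, 2 were higher and 5 lower, with a median LFC of −0.32. The ligands Efna1 (40.9 to 60.2 RPKM, LFC 0.56, SE 0.17, FDR = 0.00714) and Efnb2 (18.7 to 26.3 RPKM, LFC 0.49, SE 0.13, FDR = 0.00293) were higher. The call of Efna1 was lost without any of 8 mice (germ-free mice 2 to 5 and humanized mice 1, 4, 5 and 6), and that of Efnb2 without germ-free mouse 1 or 2 or humanized mouse 6. The ligand Efna5 (LFC −1.82, SE 0.44, FDR = 0.000632) and the receptor Epha7 (LFC −1.52, SE 0.29, FDR = 1.53e-05) were lowest. The quasi-likelihood test called 3 of the 14, all lower.

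**Figure D4:**
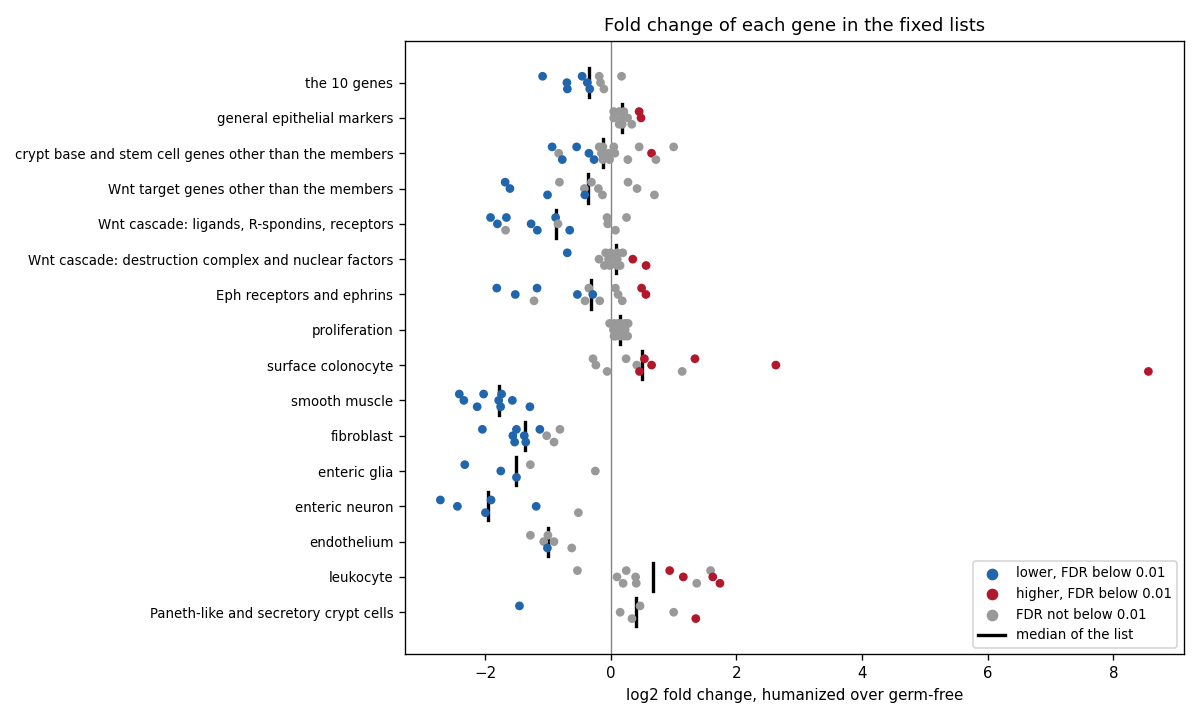
LFC (humanized over germ-free, horizontal axis) of each tested gene of the lists (rows), coloured by the call at FDR below 0.01, with the median of each list as a black line. The 10 genes lie between −1.09 and 0.17, the proliferation list close to 0, and the smooth muscle, fibroblast and enteric neuron lists at medians from −1.37 to −1.95.

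The genes of the proliferation list were not called, while the G1 kinase gene Cdk6, listed with the crypt base genes, was lower. Of 16 proliferation genes, 0 were called in either direction (0 at an unadjusted p under 0.05, 0 by the quasi-likelihood test and 0 by DESeq2), and the median LFC was 0.14. Mki67, named after its value was seen, had 7.94 RPKM in germ-free and 8.22 in humanized mice (LFC 0.05, SE 0.13). At the other end of the crypt axis, 6 of 12 surface colonocyte genes were higher and 0 lower (1 lower at an unadjusted p under 0.05, 0 by the quasi-likelihood test and 0 by DESeq2), with a median LFC of 0.50. The water channel Aqp8 (0.336 to 127 RPKM, LFC 8.56) and the retinol dehydrogenase Dhrs9 (LFC 2.63) had the highest LFC of the called genes, and Ceacam20 (0.53) and Lypd8 (0.46), which encodes a protein that binds flagellated bacteria, had the lowest. The quasi-likelihood test called 4 of the 12 higher. The call of Lypd8 was lost without germ-free mouse 1 or 3, and that of the mucin gene Muc3 (LFC 0.65, FDR = 0.00964), named after its value was seen, without any of 9 of the 11 mice (germ-free mice 1 to 5 and humanized mice 1, 3, 5 and 6). The summed RPKM of the 12 genes was 8036 to 10420 in germ-free mice and 12191 to 19489 in humanized mice. Much of this difference was Car1, named after its value was seen. It had means of 3044 and 7698 RPKM, against mean sums of 9452 and 15210. Of the 12 genes, 3 had an LFC below 0, and these were not called.

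Markers of other cells differed between the groups together with the 6 genes. All 9 smooth muscle markers were lower in humanized mice (5 by the quasi-likelihood test), and their summed RPKM was 280.1 to 857 in germ-free and 38.0 to 298 in humanized mice, the highest of the latter in mouse 6 and the lowest in mouse 5. Without germ-free mouse 4, which had the highest sum, 4 of these calls were lost (Actg2, Des, Lmod1 and Synpo2, named after their values were seen). For fibroblasts 7 of 10 markers were lower, with sums of 216 to 340.2 and 25.9 to 177 RPKM. For enteric neurons 5 of 6 were lower (6.85 to 8.52 and 1.03 to 3.26 RPKM), for enteric glia 3 of 5 tested (18.2 to 21.2 and 12.0 to 17.2 RPKM) and for endothelium 1 of 6 (19.5 to 26.2 and 3.33 to 17.2 RPKM). Most of the glial sum was Entpd2, an ectonucleotidase named after its value was seen, which was not called (16.2 and 13.6 RPKM, LFC −0.25, FDR = 0.0495), while Sox10, S100b and Gfap had LFC values from −2.33 to −1.28. The geometric mean of the 5 glial markers, each relative to its germ-free mean, was 0.794 to 1.33 in germ-free and 0.222 to 0.485 in humanized mice. The lowest humanized sum was that of mouse 5 for smooth muscle, fibroblasts, neurons and endothelium, and without it the lowest were 69.6, 82.1, 1.63 and 8.20 RPKM. None of these tested markers was at 0 in any mouse. For leukocytes 4 of 12 were higher (Cd3e, Cd3g, Cd8a and Cd79a), with sums of 80.6 to 104 and 40.2 to 210 RPKM, or 78.2 to 210 without humanized mouse 5. Most of the leukocyte sum was Lyz2 (71.2 and 93.5 RPKM), which was not called. The call of Cd79a was lost without any of 8 mice (germ-free mice 1 to 5 and humanized mice 2 to 4). Of the general epithelial markers 2 of 11, Krt18 and Elf3, were higher, with a median LFC of 0.18. The part of stromal and muscle cells in the lower levels of Smoc2, the Wnt ligands, the R-spondins and the further Wnt targets was not tested.

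The summed RPKM of the 11 epithelial markers served as a rough scale for epithelial RNA, and each member was divided by it. Reads of a member from other cells stay in this ratio, so it is not a level within the epithelium. The same 6 genes were lower without overlap (exact permutation p between 0.00216 and 0.00649), as were 9.6% of all tested genes divided in this way, and 0 of the 10 were higher without overlap, against 2.46% of all tested genes. Per 1000 units of the epithelial sum, Ascl2 fell from 1.54 to 0.647, Lgr5 from 0.301 to 0.160, Smoc2 from 1.51 to 0.825, Axin2 from 2.05 to 1.401, Znrf3 from 0.614 to 0.390 and Sox9 from 4.34 to 3.08. Rnf43 (p = 0.0844), Cd44 (p = 0.203), Ephb2 (p = 0.913) and Ephb3 (p = 0.0606, all by the exact permutation test) overlapped between the groups. With libraries scaled to these markers in place of TMM, the median LFC was −0.52 over the 10 genes and −0.17 over all tested genes. With total counts the medians were −0.54 and −0.18, and the split of calls over all genes was 773 higher and 3609 lower, against 1827 higher and 1999 lower with TMM.

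**Figure D5:**
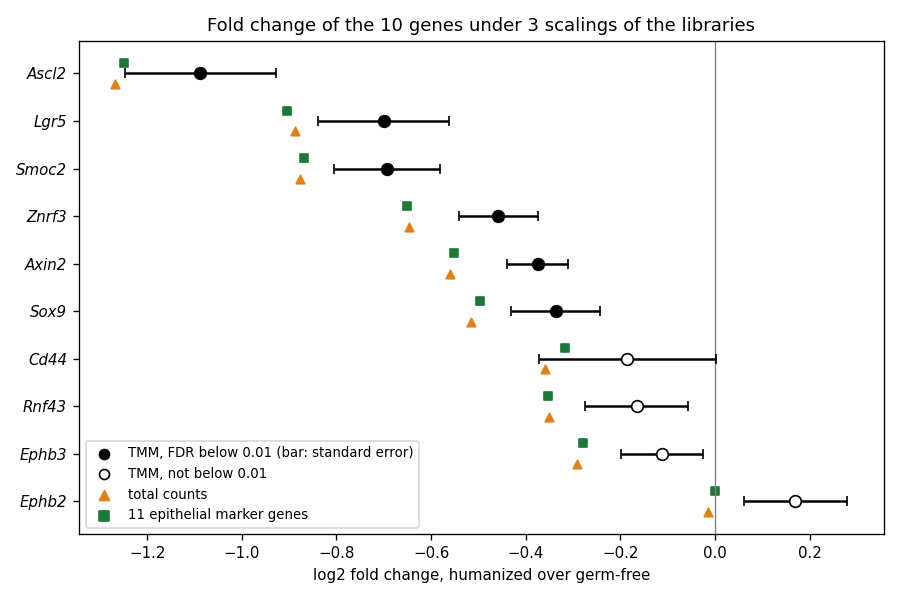
LFC (humanized over germ-free) of the 10 genes with TMM (circles, filled where FDR is below 0.01, bars give the SE), with total counts (triangles) and with scaling to 11 epithelial markers (squares). Both other scalings lie to the left of TMM for every gene, and Ephb2 moves from 0.17 to about 0.

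Genes whose levels varied most like each member among mice of the same group were named as a description only. Log2 CPM was centred on the mean of each group over the 11 mice and compared with 12343 genes of a mean CPM of at least 5, so a high r partly reflects taking the best of many genes, and all points share the library depth of each mouse. The 2 closest genes per member had Pearson's r between 0.869 and 0.959, and between 0.696 and 0.935 without the 2 mice farthest from the median of the member. For Lgr5 they were Agrn, which encodes the basement membrane proteoglycan agrin (r = 0.94, Spearman's rho = 0.92), and Hsd3b2 (r = 0.89, rho = 0.80), for Ascl2 Rrp8 and Has3, and for Smoc2 Ncl and Cbx3. For Axin2 they were Zbtb8a and Ergic1, for Rnf43 Fnip2 (r = 0.96, rho = 0.93) and Igf2r, and for Znrf3 Bco2 and Slx1b. For Sox9 they were Cd177 and Smarca2, for Cd44 Tmem263 and Rbm43, for Ephb2 Dph1 and Ergic1, and for Ephb3 Bri3bp and Gm20460. Of these genes, 3 differed between the groups at FDR below 0.01. Agrn (LFC −0.38) and Smarca2 (LFC −0.25) were lower in humanized mice, as Lgr5 and Sox9 were, while Cd177 was higher (LFC 3.35), opposite to Sox9.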

How the data were processed

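Paired-end reads of 101 bp had been aligned by the authors to mm10 with TopHat2 2.1.0 and Bowtie2 2.2.3 and counted per gene with featureCounts (Subread 1.4.6-p5). The authors deposited raw counts, with gene positions and lengths and without normalization. The tool versions are those of the submitters' processing notes, and the strand setting is not given in the sources used here.

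Counts were analysed in R 4.3.3. Following the study's methods, genes were filtered with filterByExpr (edgeR 4.0.16, minimum count 10), normalized by TMM and compared by the exact test over all 11 mice with Benjamini–Hochberg correction, called at FDR below 0.01. Alternatives were the quasi-likelihood test (with limma 3.58.1), DESeq2 1.42.0, other scalings, filters and thresholds, leaving out each mouse, and a replicate block.

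All 10 members are named. From each list of more than 4 called genes, the 2 of highest and the 2 of lowest LFC are named, and from shorter ones all called genes may be. The smooth muscle, fibroblast and enteric neuron lists are exceptions and are given mainly as counts and sums. The 2 most correlated genes per member are also named. Members and lists were chosen with earlier results of these data known. No sequencing batch is named, so no comparison within batches was made.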

Additional observations from a re-analysis of the deposited data

Results flagged for a closer look

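Of 42 sets of values (a gene or summed marker list within a group), 3 held a mouse far from the rest, where chance flags about 1 in 20. The gap of that mouse to its nearest neighbour was compared with the whole range of its group.

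Lgr5 in germ-free mice had a gap of 0.807 of the range, since mouse 1 had 1.75 RPKM and the next mouse 1.28. Without it the LFC of Lgr5 was −0.58 (FDR = 0.00184 by edgeR's exact test). Lgr5 in humanized mice had a gap of 0.663, since mouse 2 had 0.580 RPKM and the next mouse 0.804. Without it the LFC was −0.63 (FDR = 0.000368 by the same test).

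The summed RPKM of smooth muscle markers in humanized mice had a gap of 0.684, with 298 in mouse 6 and 120.0 in the next mouse. In mouse 6 the geometric mean of the 10 crypt genes relative to germ-free mice was 0.710, within the range of 0.677 to 0.808 of the humanized mice.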

How the results depend on the processing

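The number of the 10 genes called lower stayed within 1.5 times of 6 in 22 of 24 settings, and 0 were higher in all 24. It was 1, Ascl2, when an absolute LFC above 1 was required. Leaving out each mouse in turn gave 5 to 6 members and 2880 to 4411 of all genes. Chosen after the data were seen, the same omissions gave differences of log2 ratios from −0.33 to −0.23 for Znrf3 to Rnf43 and from −0.32 to −0.25 for Ephb3 to Ephb2, with adjusted p from 0.00794 to 0.0159 (exact permutation test).

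Mice of the 2 groups share label numbers. Deviations of same-numbered mice had correlations from −0.133 to 0.0910, with 1 of 5 pairs correlating best with its own number. With only 5 pairs, these values cannot exclude a factor shared by mice of the same number. The quasi-likelihood fit with the number as a block, without humanized mouse 6, called 1 member, Smoc2 (FDR = 0.00808), and 1002 of all genes. Lgr5 (FDR = 0.0129), Ascl2 (0.0113), Axin2 (0.0132), Znrf3 (0.0228) and Sox9 (0.0780) missed the threshold under it. The same test in the same 10 mice without the block called 5 members (Sox9 had FDR = 0.0374) and 2078 genes. LFC values were close in both, at −0.74 with and −0.75 without the block for Lgr5 and −1.09 in both for Ascl2. An absolute LFC above 1 gave 1678 genes.

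The LFC of Ephb2 turned to −0.015 with total counts, and that of Cd44 to 0.017 (FDR = 0.952) without humanized mice 5 and 6, a setting added after the data were seen. There Sox9 had an LFC of −0.23 (FDR = 0.0252). Without a low-count filter Sox9 had FDR = 0.0120. Over all settings 9 of 22 kept the Sox9 call. Lower calls over all genes were 1298 with the quasi-likelihood test, and higher calls were 614 with epithelial scaling and 2780 at FDR below 0.05. Total counts moved the germ-free means of Smoc2, Axin2, Sox9 and Ephb3 to 7.17, 9.78, 20.7 and 4.98 RPKM, beyond 1 SD. Among marker lists, total counts gave 5 enteric glia and 4 endothelial calls, and epithelial scaling gave 5 enteric glia, 2 leukocyte and 0 epithelial calls. Since epithelial scaling sets the summed counts of the epithelial markers equal between mice, their 0 calls under it are no separate result. The cause of the other shifts was not tested. Depth limits Lgr5 and Ascl2 most, with as few as 221 and 141 reads in a mouse.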

Other observations

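Secretory cells share the crypt base with stem cells in the colon, and 6 of 7 genes of a list for them were tested. Spink4, a product of goblet cells, was higher in humanized mice, from 192 to 489 RPKM (LFC 1.35, SE 0.42, FDR = 0.00663 by edgeR's exact test), and Mmp7, the matrilysin gene, was lower, from 13.1 to 4.78 RPKM (LFC −1.46, SE 0.38, FDR = 0.00122). The groups overlapped for both genes, and 1 mouse weighed heavily on each. Without humanized mouse 6, which had 1300.1 RPKM, the LFC of Spink4 was 0.76 (FDR = 0.00319), and its call was lost without any of 6 other mice (germ-free mice 1, 3, 4 and 5 and humanized mice 1 and 2). Without germ-free mouse 1, which had 31.2 RPKM, the LFC of Mmp7 was −0.85 (FDR = 0.00465). The other 4 were not called, with Muc2 at an LFC of 0.46 and Agr2 at 0.15. The quasi-likelihood test called 0 of the 6 genes and DESeq2 called 1, so both calls depend on the test.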
